A study of Aspergillus nidulans with 6 samples.

Results

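In mycelium of the filamentous fungus Aspergillus nidulans, 48 genes lay close to silence in untreated cultures and were well expressed after exposure to tyrosol. They were chosen on the deposited expression values themselves: a gene with an AN number was taken when its level was below 2 RPKM in each of the 3 untreated libraries and at least 15 RPKM in each of the 3 tyrosol libraries. RPKM is the number of reads scaled by gene length in kilobases and by the counted reads of the library. Of 10748 AN-numbered genes 50 met these limits, and 2 of them, which lie among the homogentisate genes AN1895 to AN1899, were left aside. The untreated group was FGSC A4, a wild type, shaken in Barratt's minimal broth, and the tyrosol group was the same strain given 35 mM tyrosol during exponential growth, with 3 libraries in each. The strain and broth are common to both groups, no other treatment is named, and nothing in the labels says whether the replicates came from separate cultures. Because both limits were set on the single contrast of the study, the levels and folds of these genes are a description and carry no test.

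Tyrosol, a phenolic alcohol that cells form from tyrosine, serves as a cell-density signal in some yeasts, and many fungi can break down aromatic compounds of this kind as food. Fungal genomes hold many genes whose transcripts are scarce in vegetative growth and appear with a particular nutrient, stress or developmental stage. Genes for one degradative or secondary metabolic route often sit side by side on the chromosome and are transcribed together, so that the neighbours of an inducible gene are of interest. Transporters, which take up a compound or export it, are frequent in such groups.

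The libraries held 9353438 to 11917409 counted reads. Replicates differed by more than counting noise in each pair, with chi-square per degree of freedom from 5.15 to 23.0. The actin gene act1, abundant in growing hyphae, stood at 1136 ± 60.7 RPKM untreated and 801 ± 5.38 RPKM with tyrosol (SD, n = 3). Its log2 fold change was -0.28 (edgeR's quasi-likelihood test, adjusted p = 0.0055). Markers of asexual sporulation moved with the treatment. Of 7 listed genes 6 were found by symbol and 5 were tested. All 5 were lower with tyrosol by edgeR's quasi-likelihood test at an adjusted p under 0.05. Of the 5, 3 were lowered at least 2-fold, as were 24.5% of all tested features. The conidial laccase gene yA went from 7.64 ± 1.12 to 1.09 ± 0.254 RPKM (log2 fold change -2.58, adjusted p = 5.4e-08), and the sporulation regulator gene brlA from 25.7 ± 3.37 to 11.03 ± 0.406 RPKM (-0.99, adjusted p = 1.8e-06). The regulator genes abaA and wetA stood at 2.64 ± 0.464 and 1.23 ± 0.218 RPKM untreated and at 0.792 ± 0.0792 and 0.270 ± 0.0110 RPKM with tyrosol, the hydrophobin gene rodA at 189 ± 13.5 and 131 ± 20.5 RPKM. The log2 fold change of rodA was -0.31, near that of act1. The hydrophobin gene dewA, at 0 to 3 reads per library, was too scarce to be tested. Summed over the 6 genes the level was 213 to 244 RPKM untreated and 132 to 168 RPKM with tyrosol, most of it from rodA. The part of sporulating cells in the values below was not tested. In such bulk RNA, more cells expressing a gene and more transcript per cell cannot be told apart.

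Near silence was common and leaving it was not. In the untreated libraries 2595 genes, or 24.1% of AN-numbered genes, were below 2 RPKM in each library, and 523 of them had no read at all. With tyrosol 2220 of the 2595 still had a mean below 2 RPKM, 196 had a mean between 2 and 5, 124 between 5 and 15, and 55 a mean of at least 15 RPKM. The 48 genes are 1.85% of the near-silent ones. Of the other 7 genes that reached a mean of 15 RPKM, 2 are the homogentisate genes left aside and 5 had a tyrosol library under the limit. In the opposite direction 33 genes were below 2 RPKM in each tyrosol library and at least 15 RPKM in each untreated one. None of the 240 rows without a plain AN number, such as tRNAs and upstream reading frames, met the limits.

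**Figure D1:**
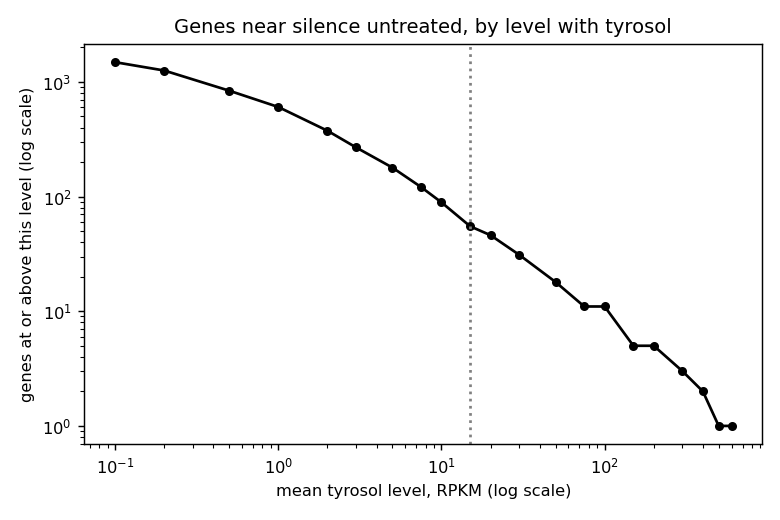
Number of genes (y axis, log scale) at or above a given mean tyrosol level in RPKM (x axis, log scale) among the genes below 2 RPKM in every untreated library; the dotted line marks 15 RPKM. The curve falls steadily through the limit, from 89 genes at 10 RPKM to 55 at 15 and 31 at 30.

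The tyrosol levels of the 48 genes ran over a wide range, from 17.2 to 611 RPKM with a median of 36.8. Of the 48, 4 had a mean under 20 RPKM, 28 lay between 20 and 50, 7 between 50 and 100, 5 between 100 and 200, and 4 were above 200. In the order of tyrosol levels over 10748 genes they took places 224 to 4498, and 4 were among the 1000 highest. Their summed reads were 888, 816 and 674 in untreated replicates 1, 2 and 3. With tyrosol the sums were 47763, 50468 and 52230. That is 0.00685% to 0.00745% of untreated reads and 0.449% to 0.454% of tyrosol reads.

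The highest tyrosol level belonged to AN6420. Its values were 0.968, 0.678 and 0.370 RPKM in untreated replicates 1, 2 and 3 and 613, 602 and 617 RPKM in the tyrosol ones. The tyrosol libraries were close to one another, the highest being 1.03 times the lowest, and the ratio of the group means was 909. AN3197 followed with 0.823, 0.549 and 0.699 RPKM untreated and 442, 444 and 385 RPKM with tyrosol. AN11896, which has no entry in the RefSeq gene table, had 1.31, 0.747 and 1.90 RPKM untreated and 375, 329 and 414 RPKM with tyrosol. AN7059 went from 0.781, 0.626 and 0.995 RPKM to 288, 255 and 269 RPKM. These 4 stood apart from the rest, as the next level was 116 RPKM.

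That next gene, AN2471, had the largest ratio of group means, 1556. It rested on 1, 1 and 0 untreated reads against 966, 931 and 1008 tyrosol reads. From the summed reads, 2 against 2905, the ratio of read rates was 1444 with an exact 95% interval of 399 to 11925, which covers counting error only. Its untreated level is therefore known only to be very low.

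Levels close to 100 RPKM were reached by 4 more genes. AN0712 had 0.760, 0.298 and 0.505 RPKM untreated and 113, 115 and 102 RPKM with tyrosol. AN9288 had 0.478, 0.137 and 0.435 RPKM untreated and 105, 122 and 102 RPKM with tyrosol. AN1174, at 5024 bases the longest of the 48, had 1.09, 1.42 and 1.15 RPKM untreated and 105, 108 and 113 RPKM with tyrosol. It also had the most reads, 5629, 6109 and 6507 with tyrosol, so that its level is among the best measured. AN9131 had 1.51, 1.57 and 0.880 RPKM untreated and 101, 105 and 105 RPKM with tyrosol. AN10432 came next with 73.8 ± 4.28 RPKM (SD, n = 3) and an untreated mean of 1.24 ± 0.454 RPKM.

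Lower tyrosol levels were seen in the genes that follow. AN6641 had 66.7, 62.4 and 64.9 RPKM with tyrosol and 1.40, 1.48 and 1.05 RPKM untreated. AN0482 had 62.0, 66.0 and 64.1 RPKM with tyrosol and 0.817, 0.773 and 0.607 RPKM untreated. These 2 were close in level in each tyrosol library. Among genes with tyrosol levels between 30 and 50 RPKM, AN11100 had 37.3, 38.7 and 37.1 RPKM with tyrosol and 0.977, 0.489 and 0.978 RPKM untreated. AN11810, with 32.6, 34.0 and 33.3 RPKM with tyrosol and 0.723, 0.724 and 0.922 RPKM untreated, was even, its highest tyrosol library being 1.04 times the lowest. AN7388 was at 35.9 ± 1.97, AN9108 at 33.2 ± 2.42 and AN11878 at 41.6 ± 2.93 RPKM (SD, n = 3). The tyrosol values of AN7388 and AN9108 overlapped between libraries.

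Between 20 and 30 RPKM, the untreated means ran from 0.198 RPKM in AN11475 and 0.243 RPKM in AN8420 to 1.65 RPKM in AN7764. AN9007 had 26.3, 22.9 and 27.1 RPKM with tyrosol and 0.413, 0.258 and 0.263 RPKM untreated. AN7598 had 24.8, 27.6 and 22.9 RPKM with tyrosol and 0.109, 0.545 and 0.139 RPKM untreated, the untreated values resting on 1, 5 and 1 reads. AN7764, with 1.90, 1.52 and 1.51 RPKM, had the highest untreated mean of the 48 and reached 27.1, 23.9 and 27.1 RPKM. AN2528, AN5421 and AN2039 had tyrosol means of 26.6 ± 2.22, 26.3 ± 4.27 and 24.6 ± 4.92 RPKM (SD, n = 3). At the foot of the order were AN8025, AN9331, AN0903 and AN3513. AN0903, the gene with the smallest ratio, had 16.7, 16.1 and 20.4 RPKM with tyrosol and 1.51, 1.62 and 1.40 RPKM untreated.

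**Figure D2:**
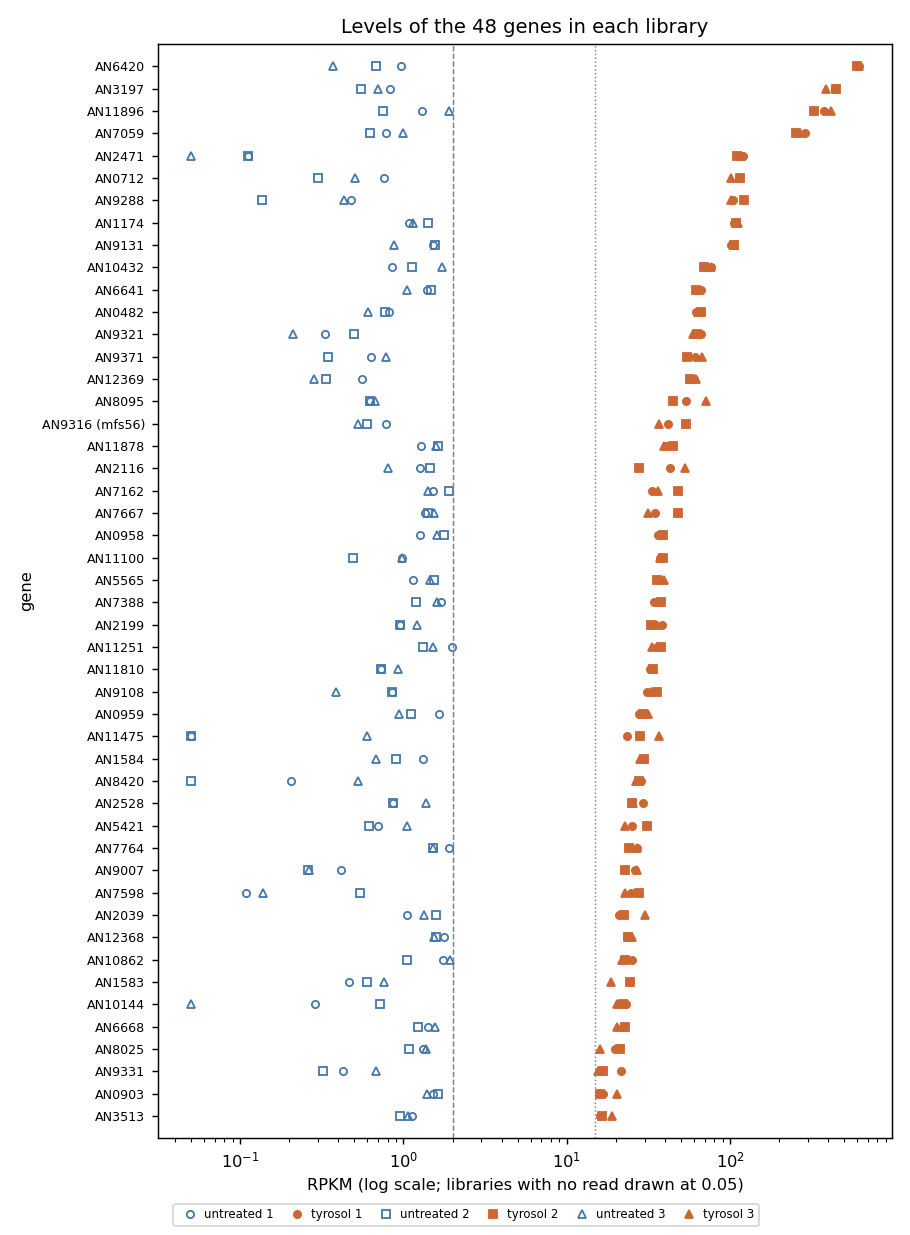
Level in RPKM (x axis, log scale) of each of the 48 genes (y axis, ordered by mean tyrosol level) in the 3 untreated libraries (open blue) and the 3 tyrosol libraries (filled orange); the dashed and dotted lines mark the limits of 2 and 15 RPKM used to choose them, and libraries with no read are drawn at 0.05. Tyrosol means run from 17.2 RPKM in AN3513 to 611 RPKM in AN6420.

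The ratio of group means had a median of 44.2 over the 48 genes and ran from 11.7 in AN0903 to 1556 in AN2471. It was under 20 for 8 genes, between 20 and 50 for 19, between 50 and 100 for 9 and above 100 for 12. Here too the untreated side limits the precision. The median gene had 39.5 untreated reads in the 3 libraries together, 6 genes had at most 10, and no gene had 0 in all 3. AN11475, 180 bases long, counted 0, 0 and 1 reads without tyrosol against 45, 57 and 76, a ratio of read rates of 177 (exact 95% interval 31.3 to 7026). AN8420 counted 1, 0 and 2 reads against 124, 127 and 124, a ratio of 124 (42.2 to 605). The interval of AN11475 takes in the ratios of both AN2471 and AN8420, so its place in the order is not resolved at this depth, while the intervals of AN2471 and AN8420 overlap only from 399 to 605. AN9321, with 6 untreated and 1058 tyrosol reads in all, was better bounded at 175 (80.2 to 479).

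Most of the genes were fairly even across the tyrosol libraries, with a higher median spread than other genes of at least 15 RPKM. The highest tyrosol library was less than 1.2 times the lowest for 33 of the 48, with a median ratio of 1.14. Among 4742 other AN-numbered genes with a mean tyrosol level of at least 15 RPKM the median was 1.10. The ratio was above 1.5 for 4 of the 48 (8.33%) and for 36 of the others (0.759%), a description without a test. The 4 were AN2116, AN8095, AN11475 and AN7667. AN2116 was the least even, with 43.0, 27.6 and 52.9 RPKM in tyrosol replicates 1, 2 and 3, from 608, 412 and 809 reads. AN8095 followed the same order, with 54.1, 44.8 and 71.0 RPKM. In both, replicate 2 was the lowest and replicate 3 the highest. AN7667 showed another order, with 34.8, 48.0 and 31.6 RPKM. AN7162, at 33.2, 48.3 and 36.1 RPKM, was likewise highest in replicate 2. Over the 48 genes the highest value fell in replicate 1 for 12, in replicate 2 for 19 and in replicate 3 for 17. The rule asked for 15 RPKM in each tyrosol library, so no gene could enter on 1 library alone.

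The limits cut through a continuous range. Just inside the untreated limit were AN11251, AN10862 and AN7162, whose highest untreated libraries had 1.98, 1.92 and 1.91 RPKM. Just outside it were AN10234, AN6023 and AN12074, with 2.01, 2.01 and 2.06 RPKM. AN10234 reached 406 RPKM with tyrosol, between the second and the third of the 48. Just inside the tyrosol limit were AN9331, AN8025 and AN3513, whose lowest tyrosol libraries had 15.6, 16.1 and 16.1 RPKM. Just outside were AN11009, AN6421 and AN2575, with 14.9, 14.8 and 14.7 RPKM. Of these, AN6421 and AN11009 lie next to genes of the set, AN6420 and AN7764.

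One of the 48 genes has a symbol in the RefSeq gene table, AN9316, called mfs56. The symbol is that of the major facilitator superfamily, a large group of membrane carriers of small molecules. The gene had 0.777, 0.595 and 0.524 RPKM untreated and 41.9, 53.7 and 36.5 RPKM with tyrosol. All tyrosol libraries were far above the untreated ones but they differed among themselves, the highest being 1.47 times the lowest. The one other gene whose symbol shares its letters, mfsA (AN9168), went the other way. It stood at 146 ± 13.2 RPKM untreated and 9.47 ± 1.53 RPKM with tyrosol (SD, n = 3), a log2 fold change of -3.71 (edgeR quasi-likelihood, adjusted p = 1.5e-11).

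In the RefSeq gene table the remaining 47 genes are named by their AN number alone, and no function is assigned to them here. Names that other sources may give them were not used. A symbol is rare in the table as a whole, given to 7.25% of AN-numbered genes against 2.08% of the 48. For 5 of the 48 (10.4%) the table has no entry, against 6.62% of AN-numbered genes. These are AN11810, AN11878, AN11896, AN12368 and AN12369. AN2199 is listed there as a pseudogene, and was nevertheless at 38.6, 32.8 and 35.9 RPKM with tyrosol and 0.952, 0.953 and 1.21 RPKM untreated. Numbers above 10000 are carried by 11 of the 48 (22.9%) and by 18.2% of AN-numbered genes. The genes were somewhat short, with a median listed length of 1249 bases against 1509 for AN-numbered genes, and 19 of the 48 were above the latter.

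Genes with consecutive AN numbers often lie side by side. Within the set, 6 genes form 3 such pairs and no run of 3 occurs. AN0958 and AN0959 were alike in level, the first with 36.4, 38.7 and 39.1 RPKM and the second with 27.6, 29.3 and 31.6 RPKM in the tyrosol libraries. Their untreated means were 1.55 ± 0.259 and 1.23 ± 0.376 RPKM (SD, n = 3). AN1583 and AN1584 had 24.5, 24.5 and 18.6 RPKM and 29.3, 29.8 and 28.0 RPKM with tyrosol. AN12368 and AN12369 differed more, at 24.1 ± 0.811 and 59.7 ± 2.52 RPKM with tyrosol and 1.63 ± 0.120 and 0.394 ± 0.146 RPKM untreated. The first 2 pairs are also adjacent in RefSeq gene order, while the third has no RefSeq entry.

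Position was not used to choose the genes, so their neighbours could be tested on their own values. The genes one AN number away from the set and not in it numbered 79, of which 59 had enough reads to be tested. Of these 59, 23 (39.0%) were raised at least 2-fold and 8 (13.6%) lowered at least 2-fold, by edgeR's quasi-likelihood test with a Benjamini-Hochberg adjusted p under 0.05. Over all 8905 tested features 23.1% were raised and 24.5% lowered at least 2-fold. The next genes on either side in RefSeq gene order, where 43 of the 48 have a position, numbered 76. Of the 56 tested, 29 (51.8%) were raised and 6 (10.7%) lowered at least 2-fold. A raise of at least 8-fold was found for 14 of the 56 (25%), against 5.27% of all tested features. By AN number it was found for 11 of the 59 (18.6%). Scarce transcripts pass the filter on low counts more readily when they rise, so the share over all neighbours, tested or not, is given too. Raised genes were 38.2% of the 76 and 29.1% of the 79 by AN number, against 18.7% of all 10988 features in the table. These shares were compared without a test of the set.

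The raised share was highest directly beside the genes. In RefSeq order the raised share of tested genes was 34.9% at a distance of 2 genes, 39.0% at 3, 26.6% at 4 and 24.1% at 5. From 6 to 10 genes it varied between 23.5% and 33.9%. The lowered share was 10.7% next to the genes and 19.0% to 31.2% at distances of 2 to 10. The median log2 fold change was 1.14 at the first gene, beside -0.04 over all tested features. It did not fall evenly with distance, being 0.24 at the second gene, 0.62 at the third and -0.10 to 0.36 from 4 to 10 genes. Counting genes of the set as raised and untested genes as not raised, 29 of 43 genes had 1 raised next gene, 2 had both raised and 12 had none. Of the 29, 26 have a next gene analysed on each side and 3 on one side only. The 12 include AN7162, whose next genes in that order are not analysed here. The 29 include AN0958, AN1583 and AN1584, whose raised next gene is itself in the set and so rose by the rule of choice. The same count was not made for genes outside the set, some of which also have a raised next gene. Whether the numbers per gene exceed the general level was therefore not tested.

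**Figure D3:**
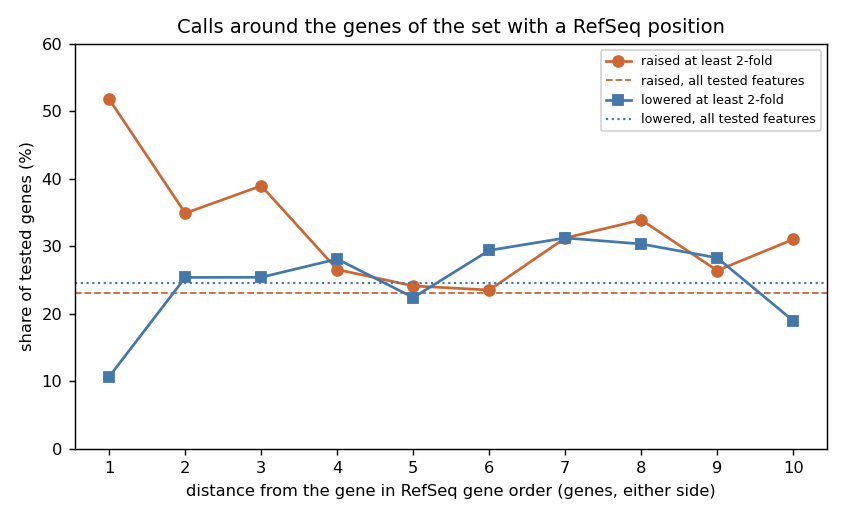
Share of tested genes (y axis, %) raised or lowered at least 2-fold with an adjusted p under 0.05, by distance in RefSeq gene order from the 43 genes that have a position (x axis, genes on either side), with the genes of the set left out; horizontal lines give the shares over all tested features, 23.1% raised and 24.5% lowered. At the first gene 51.8% were raised and 10.7% lowered.

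Several raised neighbours were more abundant with tyrosol than the gene of the set beside them, and 2 of them, AN9320 and AN6669, were above the highest level of the set. The ones described here were chosen after their values were seen, and the adjusted p beside each comes from the same edgeR fit. AN9320, next to AN9321, had 2.80, 2.51 and 4.06 RPKM untreated and 1999, 1840 and 1815 RPKM with tyrosol, a log2 fold change of 9.48 ± 0.17 (SE, adjusted p = 9.2e-14). AN9321 itself had 0.331, 0.497 and 0.211 RPKM untreated and 66.4, 62.5 and 59.0 RPKM with tyrosol. AN9320 thus lay a little above the untreated limit and far above its partner with tyrosol.

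A like pair was AN9370 and AN9371. AN9370 had 3.49, 2.82 and 3.05 RPKM untreated and 342, 322 and 338 RPKM with tyrosol (log2 fold change 6.96 ± 0.12, adjusted p = 4.3e-14). AN9371 had 0.635, 0.343 and 0.787 RPKM untreated and 61.2, 54.8 and 67.2 RPKM with tyrosol. Beside AN9131, AN9130 had 2.36, 2.39 and 2.63 RPKM untreated and 271, 283 and 305 RPKM with tyrosol (log2 fold change 7.09 ± 0.11, adjusted p = 4.3e-14). In these pairs the partner outside the set was the more abundant with tyrosol. The untreated values of each pair did not overlap, which is partly set by the untreated limit of 2 RPKM that kept the partner out.

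AN10139, beside AN10144, had 12.9, 14.1 and 16.8 RPKM untreated and 567, 523 and 550.5 RPKM with tyrosol, which edgeR put at a log2 fold change of 5.46 ± 0.11 (SE, adjusted p = 2.7e-13). AN10144 reached 21.8 ± 1.41 RPKM with tyrosol. The most abundant neighbour was AN6669, beside AN6668. It was already well expressed untreated, at 385, 335 and 412 RPKM, and had 5146, 4964 and 5038 RPKM with tyrosol (log2 fold change 3.97 ± 0.10, adjusted p = 1.2e-12). AN6668 had 22.0, 22.7 and 20.2 RPKM with tyrosol and 1.41, 1.23 and 1.57 RPKM untreated. Its log2 fold change was 4.17, near that of AN6669. Whether reads of AN6669 were counted to AN6668 was not tested. The gene next to mfs56, AN9315, had 3.43, 3.69 and 3.98 RPKM untreated and 94.97, 103.6 and 103.7 RPKM with tyrosol (log2 fold change 4.99 ± 0.11, adjusted p = 3.4e-13).

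The neighbours of AN6420 and AN2471 stayed below their partner with tyrosol. AN6421, beside AN6420, was seen in 3, 3 and 4 reads without and in 148, 159 and 162 reads with tyrosol (log2 fold change 5.71 ± 0.23, adjusted p = 7.7e-11). AN6419 on the other side of AN6420 went from 12.9 ± 2.33 to 34.8 ± 0.780 RPKM (1.67 ± 0.12, adjusted p = 1.9e-08). AN2472, beside AN2471, had 2 reads in each untreated library and 141, 107 and 136 with tyrosol, whereas AN2470 on its other side was lowered, from 4.26 ± 0.546 to 1.38 ± 0.0973 RPKM (-1.40 ± 0.19, adjusted p = 1.2e-05). AN2470 and AN2471 overlap in the RefSeq table, the one overlap found for the 43 genes. The sources used here do not say whether counting used strand, so that pair may have shared reads. Reads of an abundant gene that run into the next gene were not looked for in any pair, overlapping or not.

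In RefSeq gene order the steepest fall among the next genes was that of AN5564, beside AN5565. AN5565 had 1.15, 1.53 and 1.46 RPKM untreated and 37.4, 36.0 and 39.7 RPKM with tyrosol. AN5564 had 283, 250 and 237 RPKM untreated and 3.65, 3.45 and 3.89 RPKM with tyrosol, which edgeR put at -5.90 ± 0.12 on the log2 scale (adjusted p = 2.5e-13). Tyrosol thus turned the order of the pair's levels round, with neither gene's groups overlapping. On the other side of AN5565 stands gua1, a gene named for GMP synthesis, at 85.9 RPKM untreated and 79.1 RPKM with tyrosol. Among neighbours by AN number alone, AN10433 beside AN10432 also fell, from 60.5 to 7.64 RPKM (edgeR log2 fold change -2.76). So did AN10861 beside AN10862, from 2.09 to 0.181 RPKM (-3.26).

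**Figure D4:**
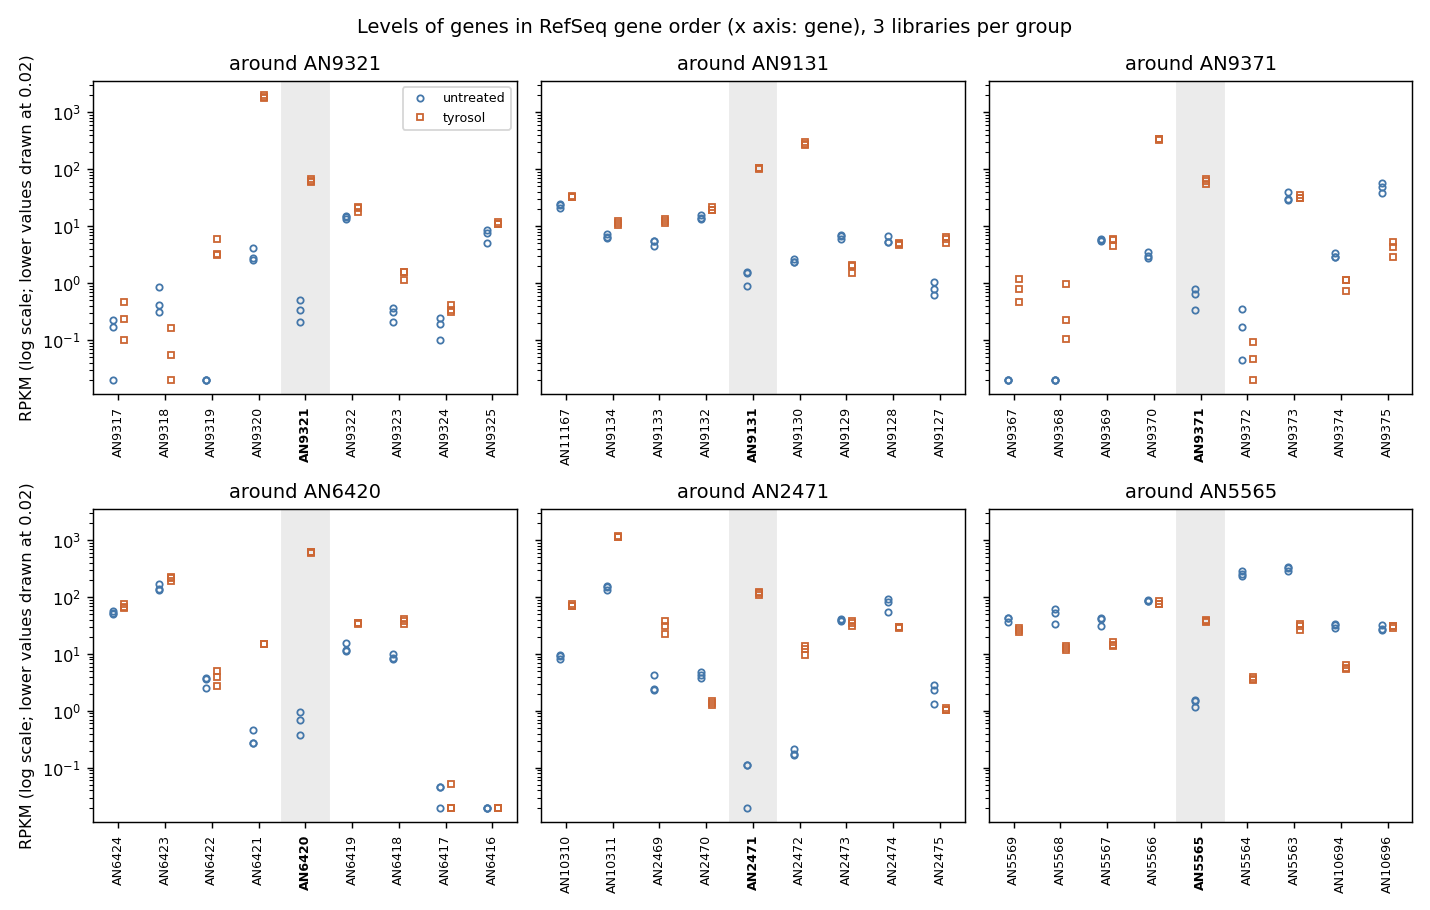
Level in RPKM (y axis, log scale, values under 0.02 drawn at 0.02) in each of the 3 untreated (blue circles) and 3 tyrosol (orange squares) libraries for the genes within 4 places of AN9321, AN9131, AN9371, AN6420, AN2471 and AN5565 in RefSeq gene order (x axis); genes of the set are in bold and the central gene is shaded. AN9320, AN9130 and AN9370 reach 1885, 287 and 334 RPKM with tyrosol, and AN5564 falls from 257 to 3.66 RPKM.

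Beyond direct neighbours the genes were scattered. In RefSeq order, over all pairs of the set, 2 were adjacent, 3 lay within 10 genes of each other and 5 within 20. The closest group was on the stretch from AN9288 to AN9371, a choice made after the values were seen. It spans 91 places in RefSeq order, of which 84 were matched to the deposited table, and holds AN9288, AN9316, AN9321, AN9331 and AN9371 of the set. Of the 54 other genes tested there 24 (44.4%) were raised and 12 lowered at least 2-fold, beside 23.1% and 24.5% over all tested features. mfs56 and AN9321 are 5 genes apart on it. Between them AN9320 rose as described, AN9319 had no untreated read and 21, 12 and 12 reads with tyrosol (edgeR adjusted p = 2.8e-05), and AN9317 and AN9318 were too scarce to be tested.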

How the data were processed

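Libraries came from total RNA of lyophilized mycelium by a TruSeq kit, per the labels' protocols. FastQC, edgeR, DESeq2 1.24.0 and HISAT2 2.1.0 are named, without a role, in the submitters' processing notes. The sources used here do not give the build, annotation, read counter or strand setting. The deposited table gives 10988 features with their raw read count, length in bases and RPKM in each library, per the file headers. The deposited RPKM equals count over listed length and column total (largest relative difference 1.26e-14). Columns headed T were read as tyrosol and K as untreated (Hungarian for control), with title numbers as replicate numbers.

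After filterByExpr and TMM scaling, counts were tested over the whole table with edgeR 4.0.16's two-sided quasi-likelihood test in R 4.3.3, with Benjamini-Hochberg adjustment. Since separate cultures are not stated, the p-values reflect spread between libraries that may be technical. RPKM values are scaled by library totals, the fold changes of edgeR by TMM. Reads of near-identical copies may be split between genes. SE is the log2 fold change divided by the root of F. In counts simulated from this comparison (8831 genes tested), 94% of 50 genes changed 2-fold were recovered and 8.63% of calls were false. Those calls used an adjusted p under 0.05 without the 2-fold limit, and far fewer genes were changed than in the data. The 2 shares therefore do not carry over to the calls given above. Intervals on read ratios are exact binomial (SciPy 1.17.1). Gene order and symbols came from RefSeq assembly ASM1142v1, which matched 10037 features (91.3%). The genes, neighbours and lists were chosen with earlier results of these data known. By rule the named genes are those with a symbol, the 10 highest with tyrosol, those nearest each limit and relatives by symbol. The rule's other classes, genes with no untreated read and runs of 3 consecutive numbers, were empty. All other genes named, those of the set included, were chosen after their values were seen. Planned protein and promoter features were not analysed here. Alternatives were limma 3.58.1 on log2(RPKM + 1), the DESeq2 1.42.0 Wald test, other scalings and filters, a replicate block and leaving out each library.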

Additional observations from a re-analysis of the deposited data

How the results depend on the processing

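The number of genes meeting the limits, 48, depended on the limits: 22 with an untreated limit of 1 RPKM, 98 with 4 RPKM, 75 with a tyrosol limit of 10 RPKM and 28 with 30 RPKM. RPKM rescaled by TMM or DESeq2 factors gave 59 and 60, group means 64, and at least 50 tyrosol reads per library 47. Leaving out 1 library gave 49 to 54. Dropping a library only removes a limit, so all 48 stay among them by construction. The count of features raised at least 2-fold, 2057, ran from 1515 (limma on log2(RPKM + 1)) to 2247 (no low-count filter). Without 1 library it was 2074 to 2114. Of the neighbours by AN number 19 to 27 were raised, 23 to 25 with 1 library left out, and by RefSeq order 25 to 35, beside 23 and 29. Of the settings with another scaling, library size alone moved the median of all log2 fold changes from -0.04 to -0.26 and the raised share from 23.1% to 19.3%, with 27 of 56 next genes raised. Genes with a consecutive partner numbered 6, 4 by RefSeq order, and 6 to 8 with 1 library left out. The same replicate numbers did not deviate together (r from -0.0821 to -0.00593). With the replicate number as a block, 2059 features and 23 neighbours were raised. Short or scarce genes are limited by their few untreated reads. The variant without overlapping genes (29 raised) was added after the data were seen.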
